A study of Mus musculus with 16 samples.

Results

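Astrocytes were the most numerous cells that a marker rule could pick out of this single-cell survey of the mouse hypothalamus and preoptic area. A barcode counted as an astrocyte if it held 201 to 3999 genes and under 15% mitochondrial UMIs, had a UMI of at least 3 of the 8 genes Itih3, Agt, Aqp4, Slc1a2, Gja1, Ntsr2, Slc1a3 and Aldoc, and had a UMI of at most 1 of 15 genes of other cells (Mog, Mag, Ermn, Snap25, Syt1, Flt1, Cldn5, C1qa, C1qb, Pdgfra, Tmem212, Ccdc153, Rax, Acta2 and Dcn). The members were thus chosen by the measured UMIs of these 23 genes, where a UMI, or unique molecular identifier, tags 1 captured molecule. The rule found 13562 astrocytes among 55675 cells kept by the gene and mitochondrial limits, or 24.4%, out of 146538 deposited barcodes. Each of the 16 libraries gave between 392 and 1566 astrocytes, and together they held 8839435 UMIs. Levels are given in CPM, a gene's UMIs per 1000000 UMIs of the same cells in a library, and since transcripts were tagged at the 3′ end no length correction applies.

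The libraries were Drop-seq preparations, 1 per mouse, in which the tissue was dissociated and each cell's transcripts were tagged at the 3′ end inside a droplet. Tamoxifen, a drug that binds estrogen receptors, was injected under the skin at 0.1 mg/kg on each of 28 days, and control mice received corn oil. The wild-type animals, of which 3 had oil and 5 had the drug, were Cre-negative littermates on a mixed CD-1;129P2 background. In the Esr1 cKO genotype, 4 animals had oil and 4 had the drug, and all carried a floxed Esr1 allele and a transgenic Nkx2-1-Cre, which removes estrogen receptor alpha only from cells of the Nkx2-1 lineage. All mice were labelled female and were 8 to 10 weeks old at the start. The Nkx2-1 lineage covers part of the hypothalamus, so an Esr1 cKO library mixes cells that did and did not undergo deletion.

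Astrocytes clear glutamate and GABA from synapses, buffer potassium, exchange water and metabolites with blood vessels and supply neurons with lipids carried on apolipoprotein E. In the hypothalamus they also secrete angiotensinogen, the precursor of the angiotensins, and contribute to the sensing of glucose and hormones. Gfap, an intermediate filament protein, marks astrocytes of fibre tracts and surfaces and reactive cells more than the protoplasmic cells of grey matter. Tanycytes, the elongated glia that line the floor of the third ventricle, share many transcripts with astrocytes.

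Some libraries went against their labels, stood apart or shared cells. The tests of shares and the counts of called genes below were also run without these libraries or cells. The descriptive levels and ratios were computed with all of them. The library labelled Esr1 cKO oil replicate 3 held 3 UMIs of Xist, the transcript of the inactive X chromosome, over its kept cells, whereas the other 15 libraries held 404 to 1826. The same library held 88 UMIs of the Y-linked Ddx3y against 4 to 31 elsewhere, 24 of Eif2s3y against 0 to 6, and 30 of Kdm5d against 1 to 11. Uty, also Y-linked, was at 93 UMIs there and at 1 to 83 elsewhere, so it set the library apart only narrowly. These transcripts went against its label as a female, and its other labels could not be checked by them.

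A pair of libraries, replicate 3 of the wild-type oil group and replicate 3 of the Esr1 cKO tamoxifen group, stood apart from the other 14. Their barcode lists began at 100 genes per barcode, compared with 20 in the others. The first principal component of the astrocyte sums, with 37.9% of the variance, placed them at 76.8 and 81.9 and no other library above -3.4. Of 790 genes with at least 200 CPM on average, 97 were higher in both than in every other library and 125 were lower in both. Myo3a, a myosin, was at 1.5 and 2.4 CPM in these 2 libraries.

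**Figure D1:**
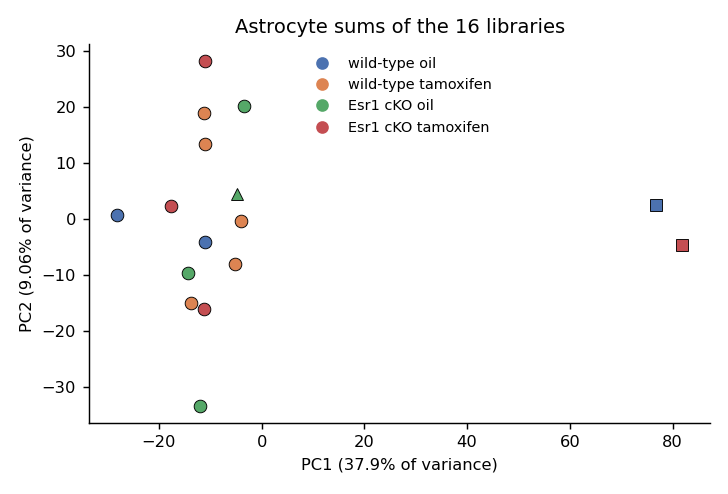
Principal components of the log-scaled astrocyte sums, 1 point per library, coloured by group. Squares mark the third replicates of the wild-type oil and Esr1 cKO tamoxifen groups, which lie at the right end of PC1 at 76.8 and 81.9, and the triangle marks the library labelled Esr1 cKO oil replicate 3.

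Libraries numbered 13 to 16 (wild-type tamoxifen replicates 4 and 5, Esr1 cKO oil replicate 4 and Esr1 cKO tamoxifen replicate 4) shared cell barcodes. Each pair of them had 303 to 359 kept barcodes in common, of which 45 to 66 were astrocytes in both, while no other pair of libraries had more than 42 kept and 1 astrocyte barcode in common. The same barcode had similar counts in both libraries of such a pair, with a median correlation over genes of 0.587 to 0.637 compared with 0.159 to 0.169 for different barcodes. In all 4 of them 295 kept barcodes and 42 astrocyte barcodes were present. Counting barcodes deposited anywhere in another library, wild-type oil replicate 2 also had 293 such kept cells (8.99%) and 84 such astrocytes (8.76%), and these cells too were left out where shared barcodes were removed.

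The astrocytes were shallow cells, with a median of 515 UMIs and 5 of the 8 markers. Exactly 3 markers were detected in 2066 of them and all 8 in 781, and the median UMI count was 414 at 3 markers and 858 at 8. Slc1a3, the glutamate transporter GLAST, averaged 3757 ± 217 CPM (SD, n = 16 libraries). Slc1a2, the transporter GLT-1, averaged 3540 ± 462. Aldoc, a brain aldolase of glycolysis, averaged 2812 ± 535, Itih3 2281 ± 386, Gja1, the gap junction protein connexin 43, 2132 ± 351, angiotensinogen (Agt) 1893 ± 340, the neurotensin receptor Ntsr2 1632 ± 264, and the water channel Aqp4 704 ± 138. These 8 levels describe the cells and are no test of the label, because the rule used the genes.

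Genes that the rule did not use are given as a description as well. Among those with at least 200 astrocyte UMIs, a limit that genes pass through the astrocytes alone, the highest ratios of astrocytes to all other kept cells were those of C030005K06Rik (32.6-fold), Gm4491 (30.2-fold), Entpd2, an ectonucleotidase (29.0-fold), Etnppl, a phosphoethanolamine lyase, Slc7a10, a transporter of serine and glycine (27.4-fold), and the uncoupling protein Ucp3 (27.2-fold). They were followed by Slc6a11, the GABA transporter GAT-3, at 2040 ± 306 CPM in astrocytes and 77.1 ± 17.2 in other cells. Sfrp5, Btbd17, AI464131, the growth factor receptor Fgfr3, the connexin gene Gjb6, Atp13a4, Cldn10 and Gm3764 completed the 15 highest, with ratios of 25.1 down to 19.6.

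**Figure D2:**
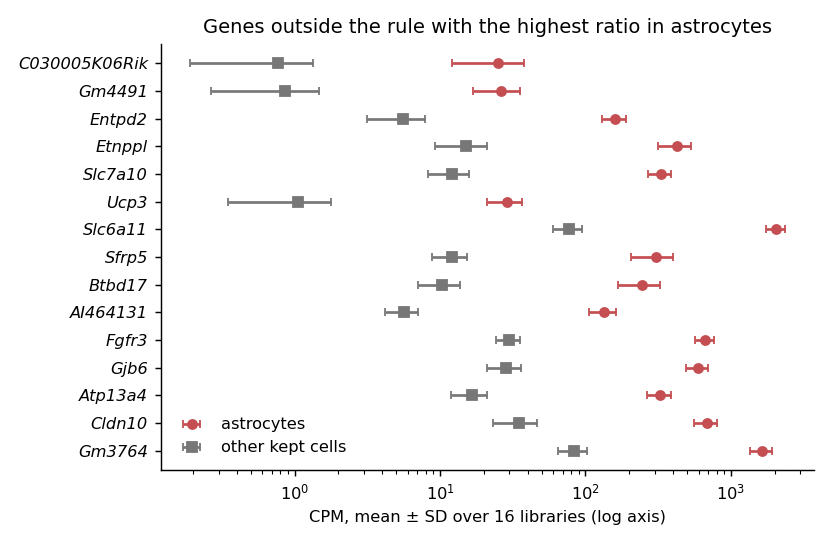
The 15 genes outside the rule with the highest ratio of astrocytes to other kept cells, as CPM on a log axis (mean and SD over 16 libraries). Red points are astrocytes, grey squares all other kept cells, and each pair is 19.6-fold to 32.6-fold apart.

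The limits of the rule were gradual. Cells with 3 markers held 1064 CPM of Slc6a11 and 8720 of Apoe, while the 2172 cells with 2 markers, just outside, held 335 and 4530. The outside cells also held more of the neuronal transcript Meg3, at 2384 compared with 1072. A further 1128 cells had 3 or more astrocyte markers and exactly 2 of other types and were left out, with a median of 1743.5 UMIs and 2501 CPM of Meg3.

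Apart from mitochondrial transcripts and Malat1, the most abundant messages served lipid transport and secretion. Apoe, the main lipid carrier of the brain, averaged 12614 ± 2179 CPM over the 16 libraries, and Cst3, the protease inhibitor cystatin C, 11226 ± 1780. Sparcl1, a secreted matrix protein, averaged 9323 ± 761 and the metallothionein Mt1 4226 ± 795. By summed level, the 18 genes of secreted products held 39251 ± 2933 CPM, the 18 genes of lipoproteins and lipid handling 24435 ± 3197, the 12 genes of gap junctions, potassium and water 14420 ± 1818, and the 13 genes of glutamate, GABA and glycine clearance 13800 ± 738. These sums include genes of the rule, among them Slc1a3 (3757) and Slc1a2 (3540) in the clearance list and Gja1 (2132) among the gap junction genes. The order thus rests in part on genes that chose the cells and is a description only. This order leaves out the oxidative phosphorylation genes of the mitochondrial genome. Over the 14 libraries that did not stand apart, their sum had a median of 17556 CPM, compared with 13853 for gap junctions, potassium and water.

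Cholesterol synthesis and uptake was a small share of the message. Its 17 genes summed to 1234 ± 158 CPM, led by Hmgcs1 at 181 ± 36.4. Reactive astrocyte genes summed to 1106 ± 147, led by the MHC light chain B2m at 230 ± 41.3. Regional transcription factors summed to 1105 ± 87.8, led by Tcf7l2 at 248 ± 48.3, and glial transcription factors to 6846 ± 597, led by Zbtb20 at 1369 ± 206. All 8 thyroid hormone genes were tested, among them the hormone transporter Slco1c1 at 196 ± 52.9.

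Over the 172 genes at 500 CPM or more, the median coefficient of variation between libraries was 17.8%. Among genes outside the rule Msi2 varied by 8.13% and Sparcl1 by 8.16%, and Slc1a3, which the rule used, by 5.76%. The haemoglobin gene Hbb-bs varied most, by 120%, from 59.9 to 2634 CPM, and next came Myo3a at 50.7%, which follows the 2 libraries that stood apart.

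Transcripts of other cell types were also present, and the sums that follow leave out the genes that the rule counts against a cell. The 7 remaining oligodendrocyte genes summed to 2256 ± 578 CPM, and the 13 neuronal genes summed to 1129 ± 696 and were led by Meg3 at 409 ± 207. The red blood cell genes summed to 1707 ± 2067, the endothelial genes to 460 ± 76.9, the precursor genes to 308 ± 74.8, the mural and fibroblast genes to 137 ± 59.0 and the microglial genes to 90.4 ± 43.0. Mog and Cldn5 were at 5.43 ± 3.86 and 2.91 ± 3.57 CPM, which the rule itself kept low.

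The 7 ependymal and tanycyte genes outside the rule summed to 422 ± 112 CPM, led by Col23a1 at 124 ± 40.6. At least 1 UMI of the 5 tanycyte markers Rax, Col23a1, Scn7a, Lhx2 and Crym was found in 855 astrocytes (6.30%, from 3.24% to 10.02% per library), and 236 held 2 or more of these markers. Those 236 cells had a median of 1832.5 UMIs, 11275 CPM of 6330403K07Rik and 4461 of Fos. In the cells with no tanycyte marker, Fos was at 408 CPM and 6330403K07Rik at 201. The member set thus held some cells with tanycyte transcripts, and the shares, the counts of called genes and the immediate early genes are also given without the cells that held a tanycyte marker.

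Transcripts of Esr1, which encodes estrogen receptor alpha, were sparse in astrocytes. A UMI of Esr1 was found in 363 of 13562 astrocytes, or 2.68% (exact 95% interval 2.41 to 2.96), at a median of 515 UMIs per cell. The share was 2.30% in oligodendrocytes (median 770 UMIs) and 2.69% in endothelial cells (median 695 UMIs). It was 6.51% in microglia (median 657 UMIs) and 9.30% in neurons (median 2022 UMIs). These shares come from unequal depths, so no order is read from them, and levels per UMI were added after the shares were seen. Per UMI, Esr1 averaged 43.4 ± 22.1 CPM in astrocytes (SD, n = 16 libraries, 2.38 to 90.1). Its level was 27.4 ± 17.8 in oligodendrocytes, 36.9 ± 32.7 in endothelial cells, 96.0 ± 52.4 in microglia and 57.0 ± 16.4 in neurons. Within libraries the astrocyte level was above that of oligodendrocytes in 16 of 16, of endothelial cells in 10, of neurons in 2 and of microglia in 0. These levels rest on 375 UMIs in astrocytes and 103 to 619 in the other types, and how much of them was free RNA was not tested. The progesterone receptor gene Pgr had a UMI in 0.737% of astrocytes and 4.61% of neurons. Nkx2-1, the gene whose promoter drives the Cre, had a UMI in 1.31% of astrocytes (1.12 to 1.51) and in 0.0401% of oligodendrocytes. It had a UMI in 0 of 3752 endothelial cells, which allows up to 0.0800% of cells with a UMI and sets no limit on cells expressing the gene. These intervals cover counting error only.

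The level of Esr1 did not check the genotype labels, since the floxed allele removes an internal exon and the UMIs count 3′ ends. In astrocytes the libraries held 27, 31 and 7 Esr1 UMIs in the wild-type oil group, 34, 29, 58, 33 and 32 with tamoxifen, 9, 15, 23 and 16 in the Esr1 cKO oil group, and 11, 12, 1 and 37 with tamoxifen. The lowest of these, 7 and 1, came from the 2 libraries that stood apart. Scaled to CPM, the group means were 47.9 ± 39.97, 53.1 ± 16.7, 34.6 ± 5.18 and 36.7 ± 25.4 in the same order, and their ranges overlapped. The log2 difference between Esr1 cKO and wild-type was -0.37 ± 0.42 (SE, edgeR quasi-likelihood adjusted p = 0.9997). Neurons, taken from the same libraries, were at 52.8 ± 6.69 and 50.9 ± 23.1 CPM in the 2 Esr1 cKO groups and at 56.3 ± 25.0 and 65.6 ± 10.8 in the wild-type groups.

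The share of astrocytes was lower in Esr1 cKO than in wild-type libraries. Astrocytes made up 26.9, 29.4 and 30.8% of kept cells in the wild-type oil libraries and 20.2, 28.7, 28.1, 27.6 and 30.7% in the wild-type tamoxifen libraries. They made up 13.3, 18.7, 27.4 and 19.4% in the Esr1 cKO oil libraries and 18.5, 20.8, 16.5 and 25.6% in the Esr1 cKO tamoxifen libraries. The groups overlapped through wild-type tamoxifen replicate 1, the lowest wild-type library, and through the high Esr1 cKO libraries, of which the one at 27.4% was the library whose sex-linked transcripts went against its label.

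The mean share was 20.03 ± 4.61% in 8 Esr1 cKO libraries and 27.8 ± 3.38% in 8 wild-type libraries, a difference of -7.76 percentage points (exact permutation test over 12870 splits, two-sided p = 0.00218, adjusted p = 0.00653 over 3 comparisons). Without the library labelled Esr1 cKO oil replicate 3 the difference was -8.81 points (exact permutation adjusted p = 0.00280), and without the 2 libraries that stood apart it was -6.82 points. Without the astrocytes that held a tanycyte marker it was -7.42 points (exact permutation adjusted p = 0.00653). Among cells with over 500 genes it was -4.97 points (adjusted p = 0.0685 by the exact permutation test), and among cells with under 5% mitochondrial UMIs it was -8.23 points (adjusted p = 0.0932 by the same test). In each successive set of 4 library numbers, both wild-type libraries lay above both Esr1 cKO libraries, with mean differences of -7.59, -9.30, -7.48 and -6.65 points. The study's methods describe 4 mice per day and do not link days to library numbers. The last set holds wild-type tamoxifen replicates 4 and 5 and no wild-type oil library, so the sets may not be days.

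A share is relative to the other cells recovered, so fewer astrocytes and more of other cells cannot be told apart. Oligodendrocytes, called by 3 of their markers, made up 15.6% of kept cells in Esr1 cKO libraries on average and 11.8% in wild-type libraries, and neurons 9.65% and 8.12%. The part of these shifts in the astrocyte share was not tested. Of the 8 markers that chose the members, 7 had a lower mean level in Esr1 cKO astrocytes and Slc1a2 a higher one. Ntsr2 was at 1434 ± 204 CPM in Esr1 cKO and 1830 ± 133 in wild-type astrocytes, and Slc1a3 at 3692 ± 287 and 3821 ± 91.6. The mean number of markers detected per astrocyte was 5.07 ± 0.241 and 5.22 ± 0.258. These levels were measured in cells that the same markers selected, and their part in the share was not tested. Requiring only 2 markers gave a difference of -8.07 points and requiring 5 gave -5.77 points.

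**Figure D3:**
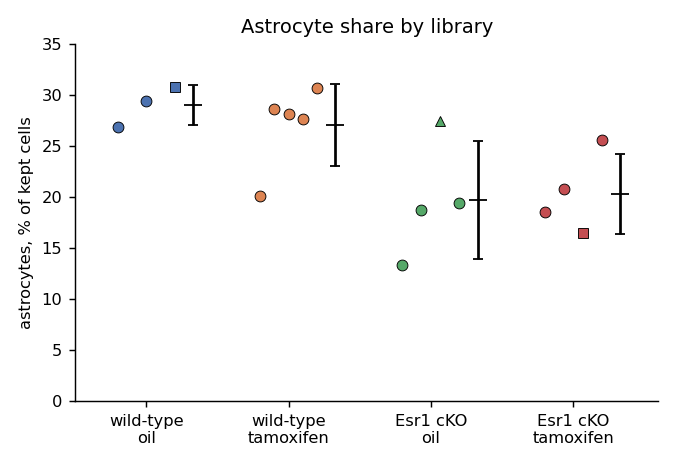
Astrocytes as a percentage of kept cells, 1 point per library, with the mean and SD of each group at its right. The wild-type libraries lie between 20.2 and 30.8% and the Esr1 cKO libraries between 13.3 and 27.4%. Squares mark the 2 libraries that stood apart and the triangle the library labelled Esr1 cKO oil replicate 3.

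Tamoxifen moved the share by less than the spread between mice in either genotype. In wild-type libraries the mean share was 27.1 ± 4.03% with tamoxifen (n = 5) and 29.0 ± 1.98% with oil (n = 3), a difference of -1.96 points (exact permutation p = 0.5). In Esr1 cKO libraries it was 20.3 ± 3.93% and 19.7 ± 5.82% (n = 4 each), a difference of 0.616 points (exact permutation p = 0.886). This small difference turned to negative values under several settings. Without the astrocytes that held a tanycyte marker it was 1.07 points and the wild-type difference -1.27, while without the library labelled Esr1 cKO oil replicate 3 it was 3.19 points.

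For expression, UMIs were summed over the astrocytes of each mouse and the sums were compared between groups. No gene passed an adjusted p of 0.05 in any of the 4 comparisons. With edgeR's quasi-likelihood test, 0 of 10077 genes (0%) were called for tamoxifen against oil in wild-type astrocytes, and 258 (2.56%) had an unadjusted p under 0.05. The corresponding unadjusted counts were 332 (3.29%) for tamoxifen in Esr1 cKO astrocytes, 420 (4.17%) for the interaction of tamoxifen and genotype, and 252 (2.50%) for Esr1 cKO against wild-type. DESeq2 also called 0 genes in each, with 164, 209, 279 and 148 at an unadjusted p under 0.05. In the astrocytes with no tanycyte marker edgeR called 0 of 9486 genes in each, with 237, 338, 397 and 239 at an unadjusted p under 0.05. Single libraries moved the unadjusted counts, from 258 to 438 without wild-type oil replicate 1 and to 430 without replicate 2, and from 332 to 550 without Esr1 cKO tamoxifen replicate 4. In data simulated at the same depth for the wild-type tamoxifen comparison (9867 genes), 85% of genes lowered by 2 on the log2 scale and 100% of genes raised by 2 were recovered, but 27.5% and 42.5% of genes changed by 1. For tamoxifen in Esr1 cKO (9759 genes) these shares were 75% and 97.5% at 2 and 22.5% and 37.5% at 1, and for genotype (9733 genes) they were 95% and 100% at 2 and 62.5% and 87.5% at 1. Apart from the imposed changes, the simulation drew all libraries from 1 mean per gene and the fitted dispersion. It gave the libraries that stood apart no gap of their own, so recovery in the real data may be lower.

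The genes with the smallest unadjusted p for tamoxifen in wild-type astrocytes were Cxcl12, Frzb, 4632427E13Rik, Pask and Rassf8. Cxcl12, a chemokine, was at 3.34, 9.73 and 9.04 CPM with oil and at 24.4, 22.3, 30.0, 31.7 and 25.6 with tamoxifen. The groups did not overlap, but the oil values rest on few UMIs. In wild-type oil replicate 1, a gene with 3 UMIs lies above each of these oil values. Cxcl12 was also picked by its small p, and the share of all genes with such a gap is not given here. Its log2 fold change was 1.72 ± 0.42 (SE, edgeR adjusted p = 0.9999), and in Esr1 cKO astrocytes it was at 22.4 ± 11.02 with oil and 25.0 ± 10.6 with tamoxifen. Frzb, a secreted inhibitor of Wnt signalling, was at 60.0, 32.0 and 25.6 with oil and 15.5, 10.3, 8.87, 8.45 and 15.4 with tamoxifen, a log2 fold change of -1.65 ± 0.41. Pask, a kinase, averaged 157 ± 53.4 with oil and 82.8 ± 9.51 with tamoxifen, and its log2 fold change was -0.87 ± 0.24. All 5 had an adjusted p of 0.9999 and are given as values only.

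In Esr1 cKO astrocytes the smallest unadjusted p values for tamoxifen were those of Gemin7 (log2 fold change 1.34 ± 0.34, SE), Synrg (-0.79 ± 0.21), Olig2 (0.90 ± 0.26), Zfp868 (-0.94 ± 0.27) and Ammecr1l (-0.78 ± 0.23). Olig2, a transcription factor of oligodendrocyte lineage cells and some astrocytes, also had the smallest p for the interaction. It was at 73.4, 100.03 and 94.9 CPM in wild-type oil libraries and 59.9, 56.6, 57.7, 65.5 and 69.2 with tamoxifen. In Esr1 cKO libraries it was at 53.8, 63.1, 42.6 and 65.1 with oil and 78.5, 100.3, 164 and 69.1 with tamoxifen. Wild-type values were thus lower and Esr1 cKO values higher with tamoxifen, and the interaction was 1.44 ± 0.35 on the log2 scale (edgeR adjusted p = 0.992). Because Olig2 was picked by its small p, this pattern is given as values only. The value of 164 came from replicate 3, one of the libraries that stood apart. Precursor sums outside the rule, which include Olig2, were 264 ± 22.0 with oil and 347 ± 136 with tamoxifen in Esr1 cKO. In wild-type they were 340 ± 56.3 and 291 ± 24.1, and the part of such cells in Olig2 was not tested. Next in the interaction came Rnf19a, Usp47, Pask and AA987161, with log2 differences of -1.60, -1.30, 1.26 and 1.92.

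Apoc1, an apolipoprotein, had the smallest unadjusted p of the genotype comparison. It ranged from 65.2 to 137 CPM in wild-type libraries (median 87.4) and from 38.6 to 70.8 in Esr1 cKO libraries (median 47.5). The groups overlapped only through Esr1 cKO tamoxifen replicate 4 at 70.8 and the lowest wild-type libraries. Its log2 difference was -0.77 ± 0.16 (SE, edgeR adjusted p = 0.869). Per2, a clock gene, Mxd4 and Fam184a followed with differences of 0.78 ± 0.22, 0.48 ± 0.14 and 0.43 ± 0.13, and B3galt5 with 0.86 ± 0.25, all at an adjusted p of 0.9997.

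By list, none of the lists of astrocyte biology held a called gene in any of these comparisons, so their medians are given beside the median of all genes. For tamoxifen in wild-type astrocytes the median log2 fold change of all genes was 0.04. It was -0.03 over 14 identity genes, 0.04 over 11 clearance genes, 0.10 over 18 lipid genes, 0.13 over 16 cholesterol genes and -0.14 over 14 reactive genes. It was 0.48 over 9 mitochondrial genes, whose sum spread widely within groups, with a mean of 15103 ± 3114 with oil and 19560 ± 4978 with tamoxifen.

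For Esr1 cKO against wild-type the median of all genes was 0.01. Over all 10077 genes, 252 (2.50%) had an unadjusted p under 0.05 in either direction. The 18 lipid genes had a median of -0.08, and 4 of them had an unadjusted p under 0.05, all lower in Esr1 cKO. These were Apoe (-0.23 ± 0.11, SE), the fatty acid binding proteins Fabp7 (-0.75 ± 0.29) and Fabp5 (-0.40 ± 0.14), and the acyl-CoA binding protein Dbi (-0.27 ± 0.12). Apoe averaged 13581 ± 1195 CPM in wild-type oil, 13863 ± 2239 in wild-type tamoxifen, 10377 ± 1641 in Esr1 cKO oil and 12565 ± 1790 in Esr1 cKO tamoxifen libraries. Lower means were not particular to astrocytes. In the other kept cells the lipid list averaged 7633 CPM in wild-type oil, 7073 in wild-type tamoxifen, 5814 in Esr1 cKO oil and 6057 in Esr1 cKO tamoxifen libraries. That wild-type oil mean includes 10682 in replicate 3, one of the libraries that stood apart. In the list of 21 genes of glycolysis, lactate and glycogen, Pgk1 (-0.57 ± 0.18) and Pkm (-0.36 ± 0.14) were also lower at an unadjusted p under 0.05. The other members of that list are not given here, so Pgk1 and Pkm do not describe the list. None of the lipid and glycolysis genes named here passed adjustment.

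Immediate early genes, which cells switch on within minutes of stimulation or of handling, had the list median farthest from 0 for tamoxifen in wild-type mice among the lists of astrocyte biology. Summed over the list, they were at 5036, 4085 and 2577 CPM in wild-type oil libraries and at 3172, 2770, 2066, 2943 and 2306 with tamoxifen. In Esr1 cKO libraries they were at 4496, 4929, 5143 and 2836 with oil and at 4259, 2298, 3539 and 4140 with tamoxifen. The groups overlapped, since wild-type oil replicate 3, one of the libraries that stood apart, lay among the tamoxifen values. Within the successive fours of library numbers, the sum was lower with tamoxifen in 3 of 3 fours that held both wild-type groups and in 3 of 4 for Esr1 cKO. Of the astrocytes with no tanycyte marker this was so in 2 of 3 and 3 of 4, and an exact sign test on 3 pairs cannot go below p = 0.25. Of 22 genes tested, 7 were lower with tamoxifen in wild-type astrocytes at an unadjusted p under 0.05, with a list median of -0.52, and none was called. Over all 10077 genes, 258 (2.56%) had an unadjusted p under 0.05 in either direction, with a median of 0.04.

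Fos, the prototype of these genes, was at 1077, 849 and 562 CPM in wild-type oil libraries and at 746, 614, 379, 569 and 455 with tamoxifen, a log2 fold change of -0.56 ± 0.25 (SE, edgeR adjusted p = 0.9999). Ier2 had a log2 fold change of -1.12 ± 0.46 and Egr1 of -0.71 ± 0.31. For Esr1 cKO against wild-type, 7 of the 22 genes were higher at an unadjusted p under 0.05, among them Atf3 (0.97 ± 0.33), Nr4a1 (0.77 ± 0.29) and Klf6 (0.52 ± 0.18), with a list median of 0.35. Over all 10077 genes, 252 (2.50%) had an unadjusted p under 0.05 in either direction, with a median of 0.01.

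Tanycyte transcripts had a lower mean with tamoxifen in wild-type mice too. The 7 ependymal and tanycyte genes outside the rule summed to 516 ± 51.4 CPM in wild-type oil and 352 ± 97.0 in wild-type tamoxifen astrocytes, with Col23a1 at -0.62 ± 0.26 on the log2 scale. Sums for other cell types, again outside the rule, had higher means with tamoxifen for oligodendrocytes (1733 ± 517 with oil and 2555 ± 430 with tamoxifen) and for mural cells and fibroblasts (114 ± 45.4 and 183 ± 53.3). The neuronal sums were 1038 ± 414 and 1126 ± 748, the endothelial 429 ± 71.1 and 471 ± 84.9, the microglial 69.8 ± 37.9 and 91.3 ± 60.5, and the precursor sums 340 ± 56.3 and 291 ± 24.1. The part of these cells in the immediate early genes was not tested beyond the removal of cells with a tanycyte marker. In the astrocytes with no tanycyte marker the immediate early genes summed to 2230 ± 902 with oil and 1794 ± 550 with tamoxifen in wild-type libraries. There the list median was -0.33 over 20 genes, and none of them had an unadjusted p under 0.05. For genotype the median became 0.18 with 3 genes at an unadjusted p under 0.05, beside 239 of all 9486 genes. Without the library labelled Esr1 cKO oil replicate 3 the genotype median was 0.27 with 4 genes, beside 323 of all 9519 genes. Without the 2 libraries that stood apart the wild-type tamoxifen median was -0.73 with 12 of 22 genes at an unadjusted p under 0.05, beside 395 of all 10402 genes (3.797%) and a median of 0.01 over all genes.

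**Figure D4:**
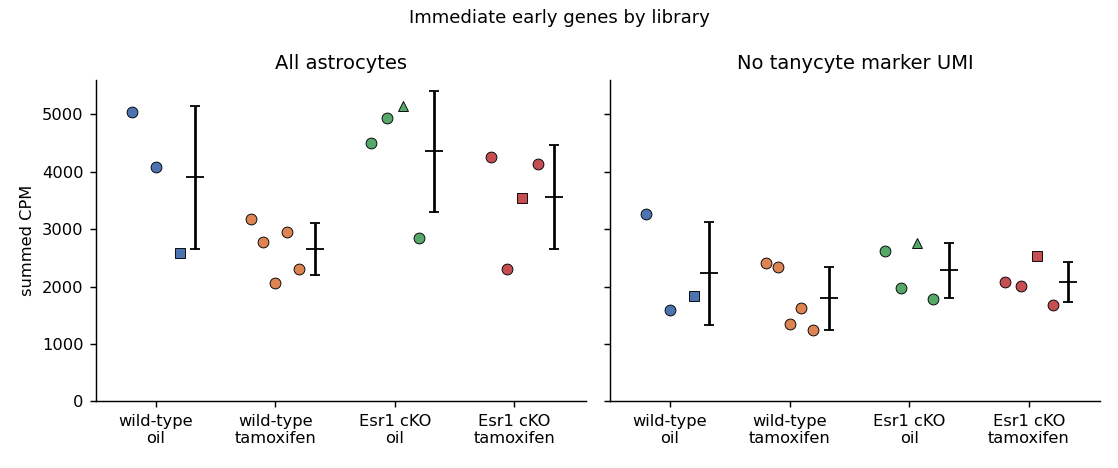
Summed level of the immediate early genes in CPM, 1 point per library, with the mean and SD of each group. The left panel holds all astrocytes and the right panel those with no UMI of 5 tanycyte markers, where the group means lie between 1794 and 2280. Squares mark the 2 libraries that stood apart and the triangle the library labelled Esr1 cKO oil replicate 3.

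The change with tamoxifen and the difference with genotype were next compared between astrocytes and all other kept cells of the same mice. By edgeR's quasi-likelihood test, no gene of 14257 (0%) differed between the classes in its tamoxifen change in wild-type mice, and 435 (3.05%) had an unadjusted p under 0.05. For the genotype difference the counts were 0 (0%) and 519 (3.64%). DESeq2 was not run for these 2 comparisons. The smallest unadjusted p values for tamoxifen were those of Dusp5, Tm9sf1, Cxcl1, Ttr and Trnt1, with log2 differences of -2.49, -2.21, -2.60, -4.74 and 1.05. Without the 2 libraries that stood apart Dusp5 was called, at -3.18 (edgeR adjusted p = 0.0182), and Ttr was at 0.12. Ttr was at 254 CPM in the astrocytes of wild-type tamoxifen replicate 2 and at 0 to 2.56 in the other 4 libraries of that group. For genotype they were those of Crb2, Etnppl, Smarcd2, H2-Ab1 and Cnot1, with 2.05, 0.68, 0.88, 4.54 and 0.73. Without the library labelled Esr1 cKO oil replicate 3 the counts of called genes were again 0. Without the astrocytes that held a tanycyte marker 0 of 14046 genes were called in both, with 445 and 536 at an unadjusted p under 0.05.

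Differences among the astrocytes themselves were described by the UMIs of 2 genes. Gfap was detected in 370 cells, or 2.73% (from 1.27% to 5.13% per library). In the 15 libraries with at least 10 cells on each side, 362 of these cells were compared with 12568 others, with the library as a block, and the 23 genes of the rule were left out of the counts. Of 2934 genes tested, 781 differed (26.6%), with 335 higher (11.4%) and 446 lower (15.2%) in the cells with a Gfap UMI, and the median of all genes was -0.07. The low-count filter worked by side of the split, so a gene could enter the test through the side where it was high. Counts by list cover only the members that passed it. The cells with a Gfap UMI were deeper, with a median over the 15 libraries of 768 UMIs compared with 497. When each cell was thinned to 300 UMIs, which left 9 libraries and 794 genes, 13 genes were higher and 83 lower, and the median of all genes moved to -0.34.

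Most of the few reactive astrocyte genes that could be tested were higher with Gfap. C4b, a complement component, was at 204 CPM (84.4 to 471, median and range over 15 libraries) with a Gfap UMI and at 63.0 (29.3 to 82.1) without. It was higher in 15 of 15 libraries, its ranges did not overlap, and its log2 fold change was 1.999 ± 0.22 (SE, edgeR adjusted p = 2.3e-17). Serpina3n, a protease inhibitor, was at 240 (75.6 to 449) and 147 (56.5 to 180), and Vim, an intermediate filament, at 268 (0 to 1603) and 98.0 (60.6 to 171). With B2m, these were 4 of 6 reactive genes tested, with a list median of 0.69, and the list holds 27 genes.

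Metallothioneins and lipid carriers rose together with Gfap. Mt1 was at 5837 (3683 to 11021) CPM with a Gfap UMI and 4247 (3247 to 5025) without, Mt3 at 1402 (746 to 1965) and 854 (647 to 1135), and both were higher in 15 of 15 libraries. Of 9 genes of metallothioneins and glutathione 5 rose and none fell. Of 15 lipid genes 7 rose, among them Apoe, Clu and Dbi, and 3 fell. Dbi was at 3919 (2035 to 8414) and 1474 (994 to 1859), a log2 fold change of 1.27 ± 0.10. The calcium binding protein S100b, the growth factor binding protein Igfbp5 and the transcriptional inhibitors Id3 and Id4 were also called higher. S100b is from the identity list, of whose 13 genes tested 2 rose and 8 fell. Id3 and Id4 are from the glial transcription factors, of which 16 were tested, 2 rose and 2 fell.

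In the same cells most of the listed receptor genes tested and 4 of 8 clearance genes were lower. Outside those lists, the glutamate transporter Slc1a1, the GABA receptor subunit Gabra2 and the transporters Slc38a1 and Slc6a6 were called higher. Gria2, an AMPA receptor subunit, was at 268 (80.1 to 882) CPM with a Gfap UMI and 989 (679 to 1600) without, lower in 15 of 15 libraries, with a log2 fold change of -1.65 ± 0.14 (SE, edgeR adjusted p = 8.2e-28). Of 11 receptor genes tested 8 fell, among them Grm3, Grm5, Gabrb1 and Ednrb, and none rose, with a list median of -0.60. Of 8 clearance genes 4 fell and none rose. The GABA transporter Slc6a11 was at 1443 (1042 to 2236) and 2170 (1565 to 2648), and Slc7a10 at 151 (33.4 to 271) and 344 (291 to 435), both lower in 15 of 15 libraries. Gjb6 and Atp1b2 were among those that fell of 8 genes of gap junctions, potassium and water. Slco1c1, a thyroid hormone transporter, was at 68.0 (0 to 134) and 194 (117 to 289).

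Thinning the cells also left fewer libraries and genes to test. After thinning, Gria2, Gabrb1, Slc6a11, Slc7a10, Cldn10 and Acsbg1 were among the genes that remained called lower, and Dbi, Id3, Igfbp5 and Cpe among those that remained called higher. No metallothionein or reactive gene was called after thinning, with list medians of 0.13 over 6 genes and 0.55 over 2, compared with -0.34 for all genes. Mitochondrial genes had a median of 0.30 with 6 called higher in all cells and of -0.34 with 2 called lower after thinning, the latter the same as the median of all genes (-0.34). The haemoglobin genes Hbb-bs and Hba-a2 were lower with Gfap, at log2 fold changes of -2.28 ± 0.22 and -2.61 ± 0.24, and after thinning Hbb-bs was at -0.38 (edgeR adjusted p = 0.567). Without the cells that held a tanycyte marker 682 genes were called, of which 628 were among the 781, and C4b was at 1.90 ± 0.24 on the log2 scale.

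**Figure D5:**
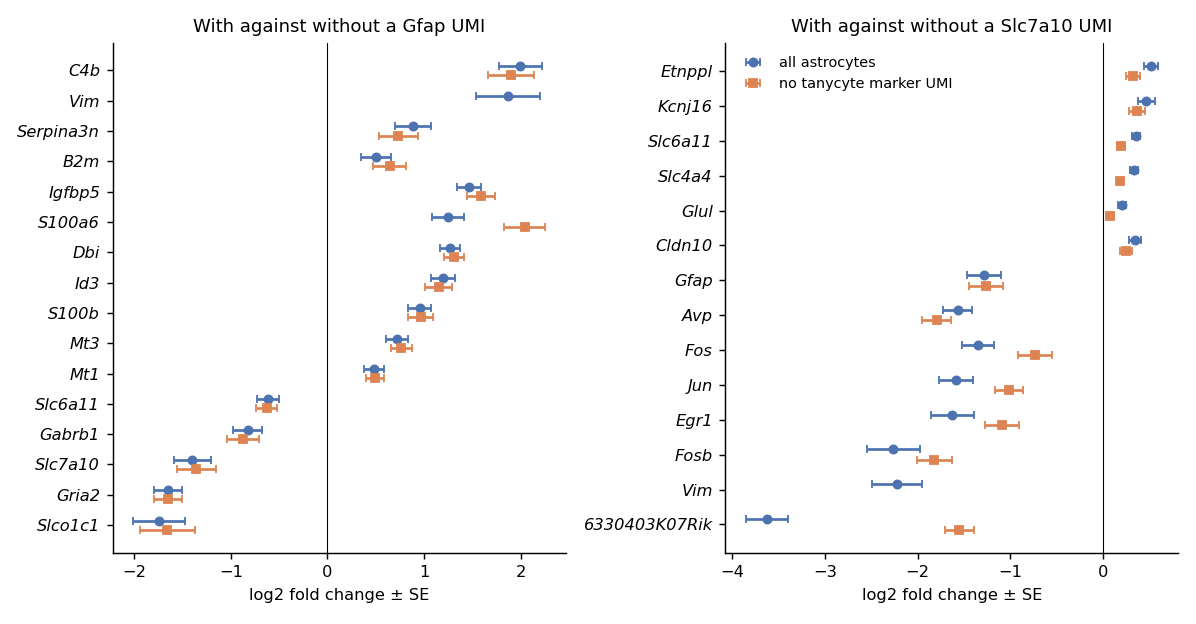
Log2 fold changes with standard errors between astrocytes with and without a Gfap UMI (left) and with and without a Slc7a10 UMI (right). Circles are all astrocytes and squares the astrocytes with no UMI of 5 tanycyte markers, with no square where a gene was too low to be tested. Apart from S100a6, which lay higher, the Gfap values stayed within about 1 SE between the 2 sets, while 6330403K07Rik went from -3.63 to -1.55.

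Slc7a10, the transporter of small neutral amino acids, divided the cells differently. A UMI was found in 2504 astrocytes, or 18.5% (from 12.97% to 25.2% per library). All 16 libraries entered the comparison with the 11058 others, and 489 of 4127 genes differed (11.8%), with 256 higher (6.20%) and 233 lower (5.65%) with the UMI. The median of all genes was 0.02. The 2 sides were closer in depth, at medians of 565.25 and 492.75 UMIs, and thinning to 300 UMIs left 23 genes called of 1175, among them Fos and Jun lower and Slc6a11 and Kcnj16 higher.

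Slc6a11 was at 2492 (1721 to 2965) CPM with the UMI and 1983 (1455 to 2521) without, and the bicarbonate transporter Slc4a4 at 2596 (2146 to 3371) and 2060 (1669 to 2605). Both were higher in 16 of 16 libraries, although the ranges over libraries overlapped, and their log2 fold changes were 0.36 ± 0.04 and 0.34 ± 0.04. Of 8 genes of gap junctions, potassium and water 7 rose and Atp1b1 fell, of 7 clearance genes 5 rose and none fell, and of 16 lipid genes 9 rose and Dbi fell. Of 13 secreted products 9 rose and Ptn fell, of 13 identity genes 7 rose and Gfap fell, and of 13 receptors 5 rose and none fell. Gfap was lower, at 34.3 (11.8 to 126) compared with 82.4 (27.8 to 252).

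Immediate early genes were lower with Slc7a10, 13 of 15 tested with a median of -1.35. Fos was at 285 (81.2 to 1160) CPM with the UMI and 814 (456 to 1322) without, lower in 15 of 16 libraries. 6330403K07Rik had the largest change, at 78.1 (9.28 to 383) and 1181 (311 to 2481), a log2 fold change of -3.63 ± 0.23 (SE, edgeR adjusted p = 1.1e-08). Next were Fosb (-2.26 ± 0.28), Vim (-2.22 ± 0.27), S100a6 (-1.78 ± 0.25), Zfp36 (-1.78 ± 0.19), Ier2 (-1.77 ± 0.25), Egr1 (-1.62 ± 0.23), Slc38a1 (-1.59 ± 0.35), the tanycyte marker Col23a1 (-1.59 ± 0.16) and Jun (-1.59 ± 0.18). The neuropeptide gene Avp and 3 other neuronal genes were lower as well, Avp in 16 of 16 libraries.

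Most of these calls were lost without the cells that held a tanycyte marker. There 73 genes were called, 32 higher and 41 lower, and 71 of them were among the 489. Fosb, Jun, Junb and Egr1 remained called lower among 10 immediate early genes tested, with a list median of -0.55, and Fos was at -0.73 ± 0.18 (edgeR adjusted p = 0.0536). Avp also remained called lower, at -1.79 ± 0.16. Slc6a11, Slc38a3, Slc4a4, Kcnj16 and Cldn10 remained called higher, with Etnppl at 0.33 ± 0.07 on the log2 scale. The differences of Slc6a11 and Slc4a4 became smaller. Mean Slc6a11 was 2455 CPM with the UMI and 2156 without (2438 and 1943 in all astrocytes). Mean Slc4a4 was 2618 and 2325 (2614 and 2114 in all astrocytes). Gfap remained lower at -1.26 ± 0.19. Without the library labelled Esr1 cKO oil replicate 3, 447 genes were called for Slc7a10 and 750 for Gfap.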

How the data were processed

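The authors deposited 1 matrix per library of whole-number counts, in which each value is the number of UMIs of a gene at a barcode. Per the labels, reads were aligned with STAR 2.6 to mm10; the counting program and annotation were not given in the sources used here. Library totals ran from 2634253 to 8038158 UMIs. Some genes are not reported here. Members and gene lists were chosen with earlier results of these data known.

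UMIs were summed over the astrocytes of each mouse and tested with edgeR 4.0.16 (quasi-likelihood, TMM scaling, low-count filter by group, Benjamini-Hochberg adjusted p under 0.05, two-sided) in 1 model of the 4 groups, with DESeq2 1.42.0 as an alternative (R 4.3.3). Comparisons within astrocytes used the library as a block and left out the 23 genes of the rule. Shares were compared by exact permutation over mice (Python 3.11.15). Named genes were the 5 with the smallest unadjusted p where none was called, the 10 largest changes where genes were called, and Esr1, Pgr and Nkx2-1, beside members of the lists. The gap in barcode lists, the shared barcodes, the cells with tanycyte markers and the library that went against its label were seen in the data. The alternatives without the last 3 were chosen after seeing them. So was the use of the fours of library numbers for the immediate early genes and for the tamoxifen shares. No doublet caller was run, and barcodes with 2 or more markers of other cells were left out by the rule. Nothing in the labels says that mice of a group came from separate litters or days. The fits were tested on simulated data.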

Additional observations from a re-analysis of the deposited data

Results flagged for a closer look

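Summed list levels in CPM and shares were searched for single libraries far from the rest of their group, in 87 groups of 4 or 5 libraries, and 4 such values were found in 3 libraries, where chance gives about 1 in 20 groups. The microglial and endothelial sums include genes of the rule. Wild-type tamoxifen replicate 1 stood above its group for cell cycle genes, at 395 compared with 199 to 253, and for microglial genes, at 246 compared with 59.9 to 99.3. Wild-type tamoxifen replicate 3 was at 717 for endothelial genes compared with 448 to 515. Esr1 cKO tamoxifen replicate 2 was at 6340 for red blood cell genes compared with 190 to 492.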

How the results depend on the processing

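No paired analysis was possible because the labels give no replicate numbers that link mice across groups, but a blocked fit by library number was. Its blocks were successive fours, of which the first 3 hold 1 mouse of every group, and the study's methods describe 4 mice per day without saying which. It called 0 genes by edgeR in each comparison, with 280 genes under an unadjusted 0.05 for genotype, 494 for the interaction, 322 for tamoxifen in wild-type and 429 in Esr1 cKO. Counting each result under each alternative once, summary results kept direction and side of the threshold in 207 cases, moved in 9, reversed in 5 and lost the call in 2, and single genes did so in 981, with 11 reversed, 2 losing and 1 gaining a call. A single gene was called for tamoxifen in wild-type astrocytes when the 2 libraries that stood apart had their own coefficient (1, Cck), for the interaction with no low-count filter (1, Igf2), and for the class difference without those 2 libraries (1, Dusp5). Calls for Gfap became 2632 with no low-count filter and 96 after thinning. Calls for Slc7a10 became 792 with no filter, 103 with no marker of other types, 73 with no tanycyte marker and 23 after thinning. The share difference by genotype was -4.97 points over 500 genes and -8.23 points under 5% mitochondrial UMIs, no longer past the threshold, and -8.85 to -6.80 leaving out 1 library each. The tamoxifen difference in Esr1 cKO turned to -1.36 thinned, -2.54 over 500 genes and -0.752 under 5%, and ran from -1.51 to 3.19 leaving out 1 library each. In wild-type mice it ran from -3.04 to -0.239. Some log2 values changed sign. Esr1 for tamoxifen in wild-type was -0.20 without the 2 libraries and -0.27 with their own coefficient, and -0.22 to 0.92 leaving out 1 library. In Esr1 cKO, Esr1 was -0.14 with 5 markers required and -0.39 to 0.57 leaving out 1 library, and Nkx2-1 was -0.14 with no other marker and -0.053 to 0.51. Pgr for genotype ran from -0.66 to 0.042, Fam184a went from 0.43 to -0.019 under 5% mitochondrial UMIs, and Ttr for the class difference went from -4.74 to 0.12 without the 2 libraries. The cause was not tested.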
